A study of Homo sapiens with 12 samples.

Results

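The transcripts described are 10 long non-coding RNAs that were grouped as hosts of small RNAs and RNAs linked to cell stress. The hosts are GAS5, SNHG1, SNHG3, SNHG5, SNHG7, SNHG8, SNHG12 and ZFAS1, whose introns carry small nucleolar RNAs (snoRNAs). NEAT1 and MALAT1 are long RNAs that stay in the nucleus. Members were taken by their gene symbol in the annotation of the array platform, a group put together with earlier results of these data known, and they were 10 of the 19884 genes it names. They had 39 probe sets, each a set of short probes for 1 transcript, and every probe set was read separately. A filter on dim signals kept 37 of them: all 18 of the hosts, 8 of 9 of NEAT1 and 11 of 12 of MALAT1. Of the 39, 22 list snoRNAs or a microRNA of the same gene beside the long RNA, and the annotation does not tell which of these RNAs the probes read.

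Gene expression was measured in 12 samples of total RNA, 1 Affymetrix array each, taken from stably transfected HEK cells, a line of human embryonic kidney origin, in which tetracycline switches on a transgene of TRPM7, a membrane protein that joins a cation channel to a kinase. The 4 groups of 3 arrays were the WT line with tetracycline, the WT line untreated, the mutant line with tetracycline and the mutant line untreated. The WT line carries the wild-type channel, and the mutant line carries a channel that lacks its whole C-terminal kinase domain, which the series design names as the nonfunctional control for the inducer. All 4 groups grew with 5 ug/mL blasticidin, and the treated groups are labelled as given 1 ug of tetracycline, with no volume stated, for 72 hours. Each channel was represented by a single line, so a difference between lines cannot be told apart from a difference between channels before induction. Whether the 3 arrays of a group stand for separate cultures is not in the labels, and each p-value therefore rests on a spread between samples that may be technical.

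The introns of snoRNA host genes release snoRNAs, which guide chemical modification of ribosomal RNA. The spliced exons of several hosts hold only short reading frames and are destroyed by nonsense-mediated decay once ribosomes reach them, so that these RNAs are known to build up where translation is blocked. Many hosts begin with a run of pyrimidines, the mark of transcripts whose translation and stability follow nutrient and growth signals. NEAT1 is the scaffold of paraspeckles, nuclear bodies that grow under several stresses, and MALAT1 is an abundant RNA of nuclear speckles, where splicing factors gather.

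An annotated start of each host gene is shown because shared start sequences are a property the choice of members did not use. For SNHG12 and ZFAS1 that start lies inside the gene. It is at 28581873 for SNHG12, on the minus strand, whose span reaches 28582983, and at 49278642 for ZFAS1, whose span begins at 49278178. Each window holds 40 bases before the annotated start and 40 from it, 5′ to 3′ on the gene's own strand, from RefSeq on GRCh38.p14. Capitals mark the letters TATAA in the 40 bases before the start, and a run of at least 6 C or T letters that touches the 10 bases on either side of the start.
GAS5 (chr1:173869006-173869085, minus strand): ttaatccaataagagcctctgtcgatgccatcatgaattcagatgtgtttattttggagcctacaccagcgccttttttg
SNHG1 (chr11:62855846-62855925, minus strand): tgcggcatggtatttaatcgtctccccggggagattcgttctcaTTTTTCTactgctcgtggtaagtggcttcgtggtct
SNHG3 (chr1:28505903-28505982, plus strand): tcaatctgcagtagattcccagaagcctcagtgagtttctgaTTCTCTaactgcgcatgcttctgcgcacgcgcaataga
SNHG5 (chr6:85678694-85678773, minus strand): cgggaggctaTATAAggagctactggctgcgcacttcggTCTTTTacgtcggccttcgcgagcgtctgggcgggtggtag
SNHG7 (chr9:136728145-136728224, minus strand): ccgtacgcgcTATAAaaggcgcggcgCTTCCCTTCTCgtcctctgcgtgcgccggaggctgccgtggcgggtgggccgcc
SNHG8 (chr4:118278722-118278801, plus strand): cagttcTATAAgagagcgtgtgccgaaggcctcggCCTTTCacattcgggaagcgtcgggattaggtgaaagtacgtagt
SNHG12 (chr1:28581834-28581913, minus strand): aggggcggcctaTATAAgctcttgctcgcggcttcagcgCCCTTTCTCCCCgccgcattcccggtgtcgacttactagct
ZFAS1 (chr20:49278602-49278681, plus strand): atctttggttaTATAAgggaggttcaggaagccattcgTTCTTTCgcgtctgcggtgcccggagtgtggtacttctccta

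The letters TATAA were present before the start of SNHG5, SNHG7, SNHG8, SNHG12 and ZFAS1, with the first T between 28 and 34 bases before it. A pair of MALAT1 starts on chromosome 11 is also listed, and 1 of them holds TATAA, which made 6 of 10 member windows, against 4.34% of all 35116 windows in the table. On the other strand TATAA reads TTATA and was found in 1 of 10 member windows, against 2.23% of all. A run of at least 6 C or T near the start was present in 8 of 10 member windows, against 31.9% of all. The run was longest in SNHG12, with 12 letters, followed by SNHG7 and the other MALAT1 start, with 11 letters each. In SNHG7 it lies wholly before the start, and in SNHG1 and SNHG3 it begins after the start. GAS5 had no TATAA before its annotated start and no such run near it, and NEAT1 had no entry. A run of C and T letters near the end of the GAS5 window was too far from the annotated start to be counted. A match is a description of the letters and not a site.

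Values are MAS5 signals, a brightness per probe set that the authors scaled to a common trimmed mean on every array, and changes are differences of log2 signal with the standard error (SE) of a limma fit over all 12 arrays. A probe set was called past the threshold at a Benjamini-Hochberg adjusted p under 0.05 over all 29553 tested probe sets. The lines differed in some control signals: on the log2 scale the 3′ signal of the beta-actin control exceeded its 5′ signal by 1.05 ± 0.265 in WT line arrays and by 0.259 ± 0.0262 in mutant line arrays (SD, n = 6 arrays each, 2-sided exact permutation p = 0.00216, the smallest possible). Between treated and untreated arrays of a line that difference gave exact p-values of 0.6 and 0.5, where 3 against 3 cannot go below 0.1. The GAPDH control, read the same way, gave 0.0831 ± 0.063 in WT line arrays and 0.0745 ± 0.0365 in mutant line arrays (exact p = 0.779). The log2 signal of the 18S control was 8.73 ± 0.715 in WT line arrays and 6.95 ± 0.549 in mutant line arrays (exact p = 0.00216). The median SD of the member probe sets was 0.516 in the WT line with tetracycline and 0.65 in the WT line untreated, against 0.201 and 0.187 in the mutant line with and without tetracycline. The fit takes 1 spread for all groups, so for the WT line it understates the error and for the mutant line it overstates it. The brightest TRPM7 probe set had a log2 signal of 6.88 to 8.68 in the WT line and 7.99 to 8.53 in the mutant line and was not higher with tetracycline in either, so it does not check the labels. Of 8 HEK cell markers with a probe set, 7 were above the filter in every group and LHX1 was not, while of 5 blood cell markers only HBB was. Of 6 markers of fibroblasts and endothelium COL1A2, DCN, PDGFRB and VWF were below it in every group. In the WT induction COL1A1, a collagen of fibroblasts, rose by 0.88 ± 0.20 (adjusted p = 0.00748). Of the 7 tested HEK cell markers IRS4 gave -1.56 ± 0.17 (adjusted p = 0.000144), WT1 -0.58 ± 0.18 (adjusted p = 0.0377) and INA 0.86 ± 0.17 (adjusted p = 0.00425), and none passed in the mutant line. On the log2 scale the summed signal of the HEK cell markers was 14.4 to 15.4 in the WT line with tetracycline and 15.4 to 15.9 in the WT line untreated. That of the fibroblast and endothelial markers was 10.4 to 10.6 in the WT line with tetracycline and 9.51 to 10.1 in the WT line untreated. The part of these markers in the member changes was not tested. In bulk RNA, fewer cells of a type and less RNA per cell cannot be told apart.

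With tetracycline in the WT line, 11 of the 37 tested member probe sets rose and 0 fell. They belonged to 6 genes: SNHG1, SNHG3, SNHG5, SNHG12, ZFAS1 and NEAT1. Over all tested probe sets 7.83% rose and 9.11% fell. Among the hosts 8 of 18 probe sets rose, for NEAT1 3 of 8 and for MALAT1 0 of 11. The median change of the members was 0.77 and that of all tested probe sets 0.02, and 32 of the 37 members were above 0. At ZFAS1 229899_s_at and MALAT1 228582_x_at only the treated WT mean was above the filter, which favours a rise. Their signs are not evidence, and counts here and below that include them carry this limit. GAS5, SNHG7, SNHG8 and MALAT1 had no probe set past the threshold. How many members passed rested on single arrays of the WT line. The count was 3 without WT tetracycline replicate 2 or without WT untreated replicate 3, and 4 without WT tetracycline replicate 3. Of all tested probe sets 9.28%, 11% and 9.42% were called in these fits in either direction, against 16.9% in the main fit. The members called were 17 without WT untreated replicate 1 and 18 without WT tetracycline replicate 1, against 13.4% and 27.1% of all. The count was 1 without the third-numbered array of every group (1.74% of all). It was 2, both of SNHG12, with only the WT arrays in the fit (4.14% of all).

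**Figure D1:**
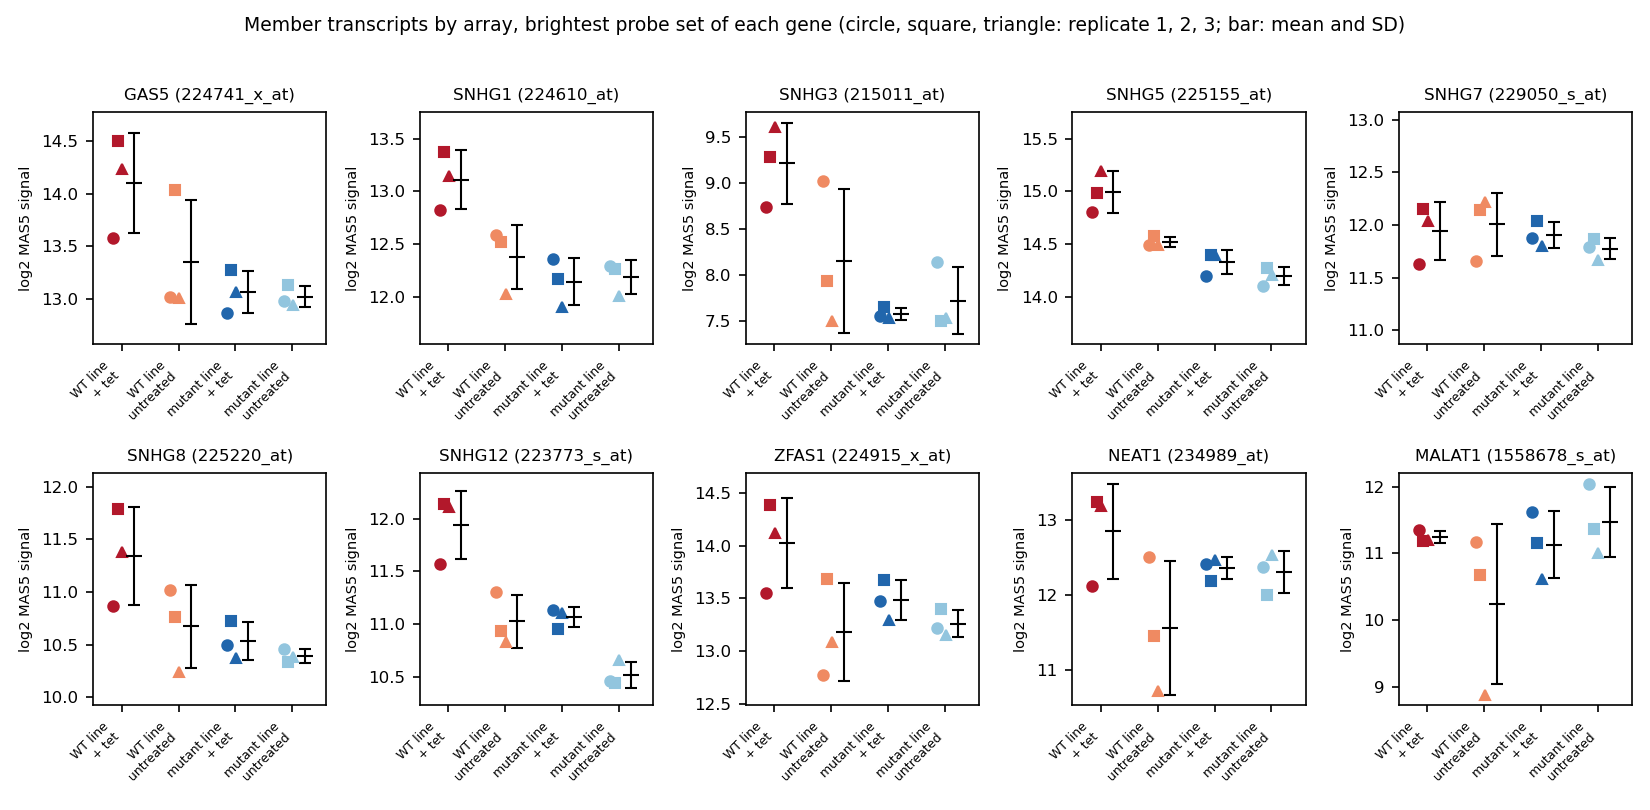
The log2 MAS5 signal of the brightest probe set of each gene on all 12 arrays, by group, with the mean and SD of each group as a bar and with circles, squares and triangles for replicates 1, 2 and 3. In SNHG1, SNHG5, SNHG12 and MALAT1 all 3 arrays of the WT line with tetracycline lie above all 3 untreated ones, though MALAT1 was not called. The share of all tested probe sets that separate in this way is not given here, so the separation is only described. The WT line is more scattered than the mutant line in most panels.

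SNHG12, host of several snoRNAs, gave the strongest call. Its probe set 223774_at had signals of 1343, 1948 and 1733 in the WT line with tetracycline, against 794, 519 and 613 in the WT line untreated. The mutant line had 1107, 1134 and 1050 with tetracycline, against 754, 777 and 767 untreated. The treated arrays were above the untreated ones in both lines without overlap. The change in the WT line was 1.39 ± 0.18 (SE, n = 3 arrays per group), a 2.62-fold rise with an adjusted p of 0.000316, and it passed in 21 of 21 alternative settings. The change in the mutant line was 0.52 ± 0.18 and did not pass (adjusted p = 1.00).

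A second SNHG12 probe set, 223773_s_at, had signals of 3038, 4509 and 4418 in the WT line with tetracycline, against 2537, 1961 and 1823 untreated. The mutant line had 2244, 1983 and 2204 with tetracycline, against 1406, 1390 and 1616 untreated. Again neither line's groups overlapped. The rise in the WT line was 0.91 ± 0.17 (adjusted p = 0.00279), and the change in the mutant line was 0.54 ± 0.17 (adjusted p = 1.00). The third, 228990_at, did not follow: it read 629, 591 and 638 in the WT line with tetracycline, against 949, 543 and 521 untreated, a change of -0.06 ± 0.22 (adjusted p = 0.878). Over the 12 arrays the first pair of probe sets correlated with Pearson's r of 0.815, and 228990_at had an r of 0.269 and 0.00805 with them. All such points share the arrays, the scaling and the group means.

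SNHG5 is a host of box C/D snoRNAs. Signals of 225155_at were 28616, 32469 and 37492 in the WT line with tetracycline, against 23106, 24492 and 23110 untreated. The mutant line had 18844, 21568 and 21646 with tetracycline, against 17630, 19802 and 18967 untreated. The WT groups did not overlap and the mutant groups did. The rise in the WT line was 0.47 ± 0.11, or 1.39-fold (adjusted p = 0.008), and the change in the mutant line was 0.14 ± 0.11 (adjusted p = 1.00). The rise passed in 19 of 21 alternative settings and was lost with only the WT arrays in the fit and without the third-numbered arrays.

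SNHG1 carries box C/D snoRNAs and is a classic example of a host whose spliced RNA decays when translated. Signals of 224610_at were 7228, 10609 and 9036 in the WT line with tetracycline, against 6131, 5861 and 4163 untreated. For the mutant line they were 5240, 4597 and 3840 with tetracycline, against 5024, 4920 and 4104 untreated. Only the WT groups were separate. SNHG1 rose by 0.74 ± 0.18 in the WT line (1.67-fold, adjusted p = 0.0114) and changed by -0.04 ± 0.18 in the mutant line. The WT change was 0.56 to 0.88 when single arrays were left out, and it did not pass without WT tetracycline replicate 2 or without WT untreated replicate 3.

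SNHG3, host of H/ACA snoRNAs, had signals of 429, 625 and 783 in the WT line with tetracycline, against 521, 245 and 181 untreated, at 215011_at. The mutant line read 188, 202 and 185 with tetracycline, against 282, 181 and 185 untreated. The groups overlapped in both lines, since untreated replicate 1 of the WT line was above treated replicate 1. The rise was 1.06 ± 0.34 (adjusted p = 0.0439), the weakest of the 11 calls, and it passed in 8 of 21 alternative settings, with a change between 0.54 and 1.50.

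ZFAS1, host of box C/D snoRNAs and named for its place antisense to ZNFX1, had 4 probe sets. The brightest, 224915_x_at, read 12018, 21454 and 17818 in the WT line with tetracycline, against 6999, 13168 and 8716 untreated. The mutant line read 11392, 13093 and 10043 with tetracycline, against 9502, 10816 and 9126 untreated. Groups overlapped in both lines, with treated replicate 1 of the WT line below untreated replicate 2. At 226227_x_at the WT line read 12299, 21847 and 17843 with tetracycline, against 7248, 13197 and 8446 untreated, close to the brightest probe set array by array. At 226835_s_at it read 8635, 15790 and 16557 with tetracycline, against 5423, 10878 and 7147 untreated, again with 1 array out of place on each side. The WT rise was 0.84 ± 0.22 at 224915_x_at (adjusted p = 0.0176), 0.86 ± 0.21 at 226227_x_at (adjusted p = 0.0141) and 0.81 ± 0.24 at 226835_s_at (adjusted p = 0.0341). None of these 3 passed without WT tetracycline replicate 2 or 3 or without WT untreated replicate 1 or 3. The dim 229899_s_at read 96, 141 and 112 with tetracycline, against 143, 7 and 81 untreated, and did not pass (1.41 ± 0.82, adjusted p = 0.26). The suffix _x_at marks probe sets whose probes may also match other transcripts.

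GAS5, host of box C/D snoRNAs and named for its build-up in growth-arrested cells, lay above 0 at all 5 of its probe sets in the WT line but passed at none. The brightest, 224741_x_at, read 12239, 23162 and 19236 in the WT line with tetracycline, against 8277, 16751 and 8246 untreated. In the mutant line it read 7489, 9895 and 8553 with tetracycline, against 8110, 8993 and 7882 untreated. A single array, untreated replicate 2 of the WT line, was above treated replicate 1. The WT change was 0.75 ± 0.25 (adjusted p = 0.0532), and the other 4 probe sets gave 0.33 to 0.77 (adjusted p of 0.0604 to 0.533). Without WT untreated replicate 2 the brightest probe set passed with a change of 1.09 (adjusted p = 0.00421), and without WT tetracycline replicate 1 with a change of 1.01 (adjusted p = 0.00535), and it passed in 6 of 21 alternative settings in all.

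SNHG8, host of an H/ACA snoRNA, had signals of 1863, 3530 and 2668 in the WT line with tetracycline, against 2072, 1741 and 1212 untreated, at 225220_at. The mutant line had 1449, 1694 and 1324 with tetracycline, against 1408, 1291 and 1332 untreated. The WT groups overlapped by 1 array, and the change of 0.67 ± 0.22 did not pass (adjusted p = 0.0526). It passed without WT untreated replicate 1 (change 0.84, adjusted p = 0.0319) and without WT tetracycline replicate 1 (change 0.91, adjusted p = 0.00414). SNHG7, host of H/ACA snoRNAs, read 3166, 4557 and 4196 in the WT line with tetracycline, against 3232, 4515 and 4760 untreated, at 229050_s_at. Those groups overlapped almost wholly, with a change of -0.07 ± 0.16 (adjusted p = 0.82). Its dimmer probe set 1552729_at gave 0.23 ± 0.25 (adjusted p = 0.56), and the pair had an r of -0.241 over the 12 arrays.

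NEAT1 had 8 tested probe sets, which fell into different patterns. The brightest, 234989_at, read 4459, 9711 and 9353 in the WT line with tetracycline, against 5828, 2811 and 1688 untreated. The mutant line read 5447, 4670 and 5673 with tetracycline, against 5322, 4107 and 5965 untreated. The WT line spanned a wider range than the mutant line both above and below, and its untreated replicate 1 was above its treated replicate 1. NEAT1 rose in the WT line by 1.29 ± 0.36 at this probe set (2.45-fold, adjusted p = 0.0234), by 1.49 ± 0.43 at 225239_at (2.81-fold, adjusted p = 0.0298) and by 1.07 ± 0.33 at 238320_at (2.11-fold, adjusted p = 0.0359). Changes in the mutant line were 0.05, 0.06 and 0.01 at these 3 probe sets, each with an adjusted p of 1.00.

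The probe set 225239_at had signals of 1922, 3994 and 4962 in the WT line with tetracycline, against 2911, 969 and 611 untreated. At 238320_at they were 370, 951 and 781 in the WT line with tetracycline, against 495, 268 and 222 untreated. In the mutant line 225239_at read 2830, 3255 and 2541 with tetracycline, against 3115, 2248 and 2981 untreated, and its groups overlapped. In both, untreated replicate 1 of the WT line again exceeded treated replicate 1. All 3 NEAT1 calls were lost without WT untreated replicate 2 or 3 and without WT tetracycline replicate 2 or 3. Without WT untreated replicate 3 the change at 234989_at was 0.87 (adjusted p = 0.104). On that array the mean log2 signal of the poly-A spike-in controls was 7.83, the lowest of the 12, and it was also the lowest in the third-numbered array of every other group. The part of this in the NEAT1 result was not tested.

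Other NEAT1 probe sets did not follow the bright ones. At 224565_at the signals were 987, 588 and 464 in the WT line with tetracycline, against 1738, 494 and 463 untreated, a change of -0.19 ± 0.39 (adjusted p = 0.78). The neighbour in signal, 224566_at, gave 0.02 ± 0.41 (adjusted p = 0.98). This pair had an r of 0.942 with each other and of 0.215 and 0.278 with 234989_at over the 12 arrays, while 225239_at had an r of 0.951 with 234989_at. The remaining tested probe sets gave changes of 1.65 ± 0.64 at 227062_at (adjusted p = 0.0917), 0.99 ± 0.59 at 214657_s_at (adjusted p = 0.269) and -0.33 ± 0.34 at 239269_at (adjusted p = 0.535). The untested 220983_s_at, with signals between 4 and 59, is listed under NEAT1, but its accession belongs to SPRY4 in the RefSeq gene table. Where the probes lie along NEAT1 was not analysed here.

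MALAT1 had no probe set past the threshold in the WT line. At the brightest, 1558678_s_at, the signals were 2606, 2334 and 2346 in the WT line with tetracycline, against 2296, 1644 and 471 untreated. The mutant line read 3146, 2286 and 1566 with tetracycline, against 4215, 2643 and 2059 untreated. The WT groups did not overlap, and the distance between them came mostly from untreated replicate 3. The change was 1.00 ± 0.44 (adjusted p = 0.133), and without that array it was 0.32. Without WT untreated replicate 1 it was 1.46 (adjusted p = 0.037), and 5 MALAT1 probe sets passed in that fit, so the lack of calls also turned on single arrays. Over the 11 tested MALAT1 probe sets the change ran from -0.27 to 2.01, with 10 above 0 and adjusted p-values of 0.0789 and above. The upper end was that of 228582_x_at, also among the 5, where only the treated WT mean was above the filter.

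**Figure D2:**
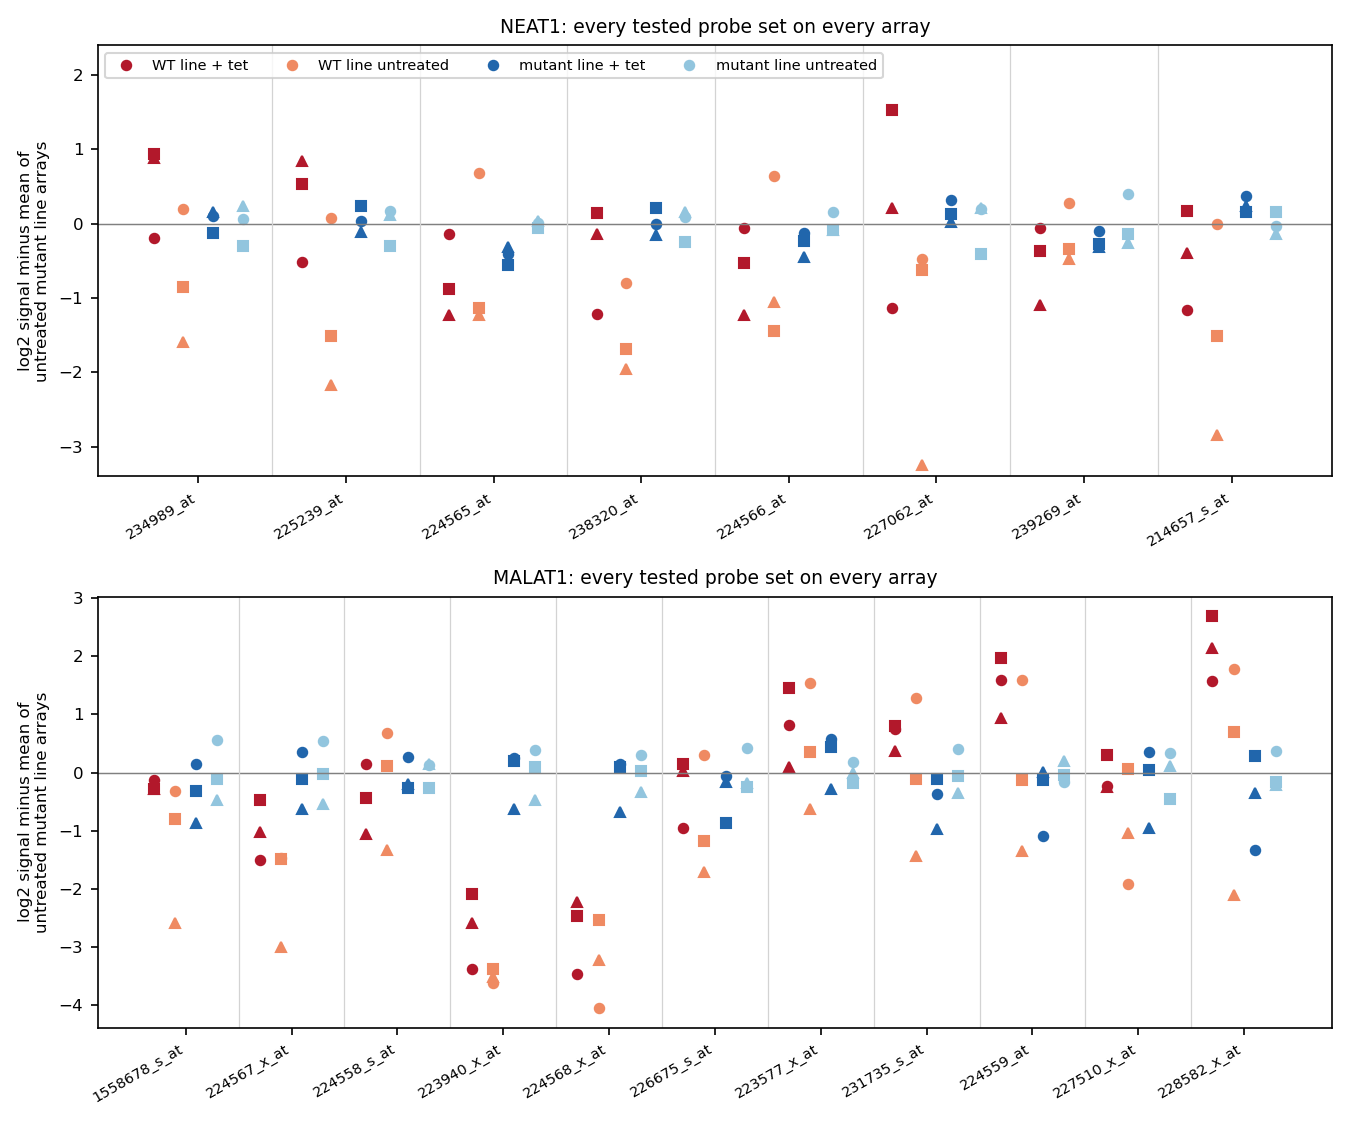
The log2 MAS5 signal of every tested NEAT1 probe set (upper panel) and MALAT1 probe set (lower panel) on each of the 12 arrays, minus the mean of the 3 untreated mutant line arrays, with groups by colour and circles, squares and triangles for replicates 1, 2 and 3. The WT line arrays spread over several log2 units within a group at many probe sets, and at 223940_x_at and 224568_x_at of MALAT1 all 6 lie below every mutant line array.

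In the mutant line 0 of the 37 member probe sets passed in either direction, as did 0% of all tested probe sets, where limma called none. At an unadjusted p under 0.05 there were 2 of 37 members, which were the SNHG12 pair already given, and 620 (2.1%) of all tested probe sets. Treated and untreated mutant line arrays also did not overlap at NEAT1 224565_at (change -0.43), 224566_at (-0.27) and 214657_s_at (0.26). The median change of the members was -0.06, and that of all tested probe sets was 0.0021, with 16 members above 0 and 21 below. With array weights in the fit, 4 probe sets of the whole table passed and 0 members did. The test of the difference between the inductions, WT minus mutant, called 0 of 37 members, against 0.0643% higher and 0.0744% lower of all tested probe sets. Of the members 34 had a positive difference, with a median of 0.70 against 0.01 over all probe sets, and at an unadjusted p under 0.05 there were 10 of the 37, where 14.5% of all tested probe sets were. The smallest adjusted p among them was 0.143, for SNHG12 at 223774_at (0.87 ± 0.25), followed by SNHG1 with 0.177 (0.78 ± 0.25). The WT inductions that passed were therefore not shown to differ from those of the mutant line by this test. With array weights, which count arrays that fit poorly for less, 15 of 37 members passed the test of the difference, against 8.44% of all tested probe sets in that fit. The 15 include MALAT1 228582_x_at, which carries the limit of the filter given above. Without WT tetracycline replicate 1 it was 6 of 37, against 8.99% of all.

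**Figure D3:**
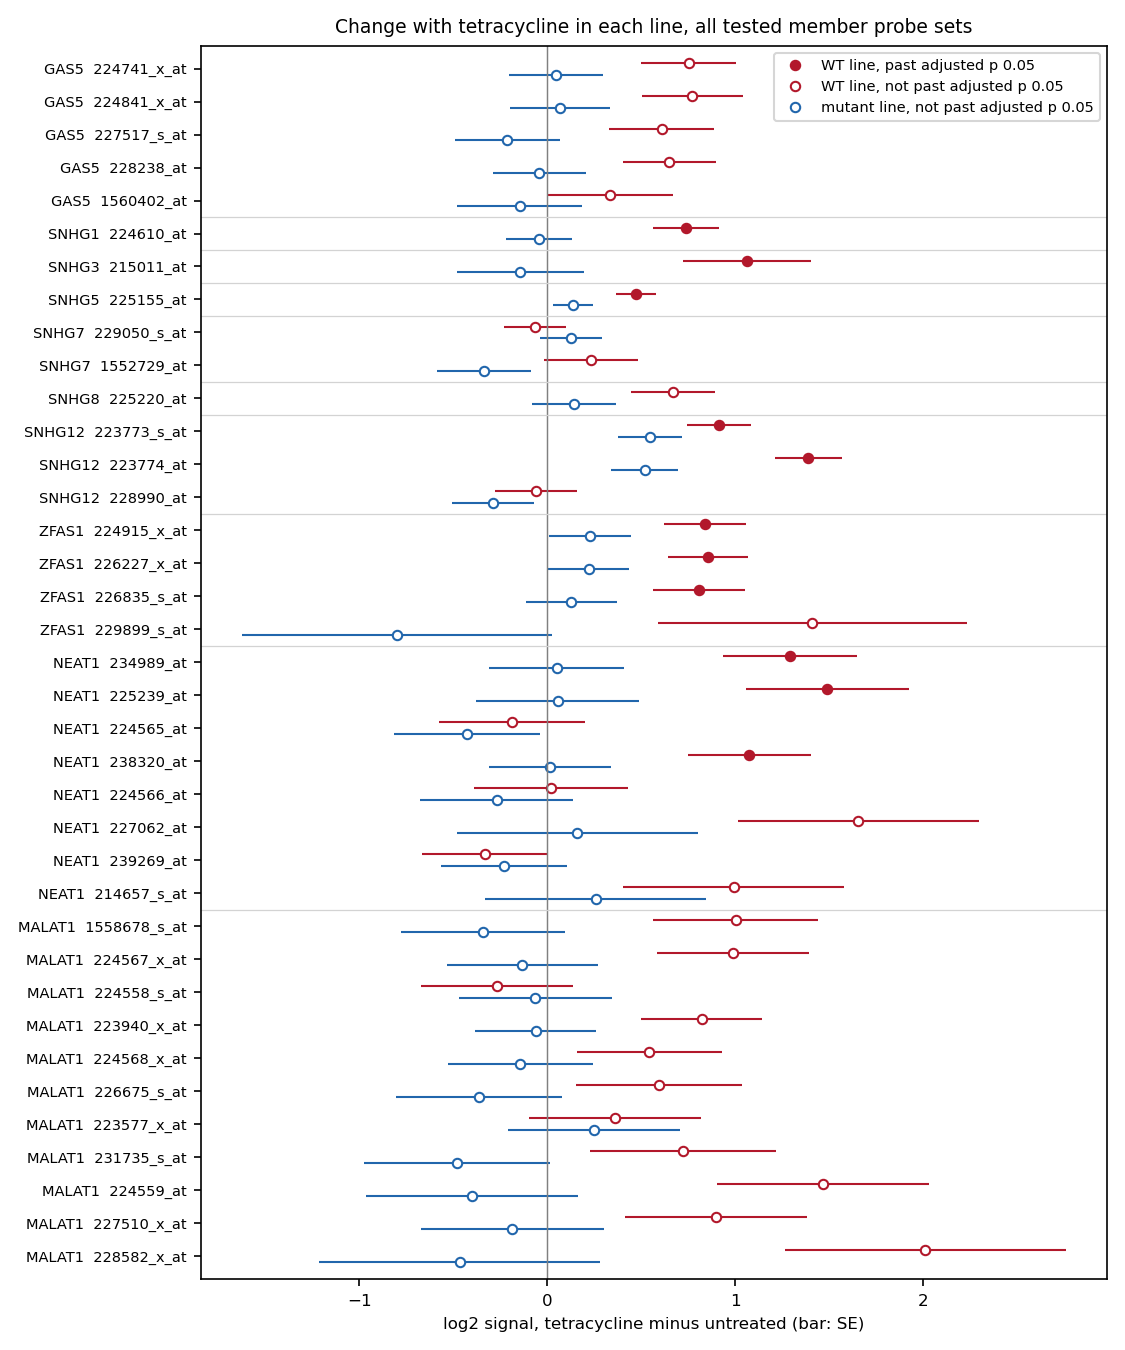
The change of log2 MAS5 signal with tetracycline, treated minus untreated, of all 37 tested member probe sets, in the WT line (red) and the mutant line (blue), with bars of 1 SE and filled points for an adjusted p under 0.05. In the WT line 11 points are filled and 32 lie above 0, and in the mutant line none is filled and 16 lie above 0.

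Between the lines with tetracycline, 14 of 37 member probe sets were higher in the WT line and 2 lower, against 10.2% higher and 17.3% lower over all tested probe sets. The 14 include MALAT1 228582_x_at, where only the treated WT mean was above the filter. This comparison uses the same treated WT arrays as the WT induction, so the counts are not separate evidence. Hosts made up 12 of the 14, in 7 of the 8 host genes, with a median difference of 0.84 over the 18 host probe sets and -0.10 over all tested probe sets. All 5 GAS5 probe sets were higher, by 0.99 to 1.27. They read the same gene on the same arrays, with correlations of 0.525 to 0.998 over the 12 arrays, so they are not separate results. At 227517_s_at GAS5 read 2512, 4325 and 6007 in the treated WT line, against 1852, 1604 and 1568 in the treated mutant line. That was a difference of 1.27 ± 0.28, or 2.41-fold (adjusted p = 0.00465). At 224841_x_at it read 12397, 23457 and 19952 in the treated WT line, against 7098, 9781 and 8682 in the treated mutant line, and at 228238_at it read 2388, 2363 and 2580 in the treated WT line, against 1689, 1229 and 862 in the treated mutant line. At the dim 1560402_at the signals were 140, 365 and 253 in the treated WT line, against 128, 143 and 90 in the treated mutant line, and the lines overlapped. Its call (adjusted p = 0.0399) passed in 9 of 20 alternative settings, and those of the other 4 passed in 20 of 21 each. SNHG3 was higher by 1.63 ± 0.34 (adjusted p = 0.00332), SNHG1 by 0.97 ± 0.18 (adjusted p = 0.00149), SNHG8 by 0.81 ± 0.22 (adjusted p = 0.0154) and SNHG5 by 0.66 ± 0.11 (adjusted p = 0.000664). SNHG12 was higher by 0.88 ± 0.17 at 223773_s_at (adjusted p = 0.00224) and by 0.59 ± 0.18 at 223774_at (adjusted p = 0.0238). The count of 16 became 10 without WT tetracycline replicate 2 and 6 without the third-numbered arrays. Of all tested probe sets 27.6% were called in the main fit, and 19.2% and 8.68% in these fits.

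ZFAS1 passed at 1 of 4 probe sets between the treated lines, with 0.60 ± 0.21 at 226227_x_at (adjusted p = 0.0498), and that call was lost in 14 of 21 alternative settings, among them quantile normalization. SNHG7 did not pass (0.04 ± 0.16 and -0.19 ± 0.25), and neither did any of the 8 NEAT1 probe sets, with differences of -0.72 to 0.50. Before tetracycline, 0 of the 18 host probe sets passed the threshold between the lines, where limma called 0 of 37 members higher and 4 lower, against 4.19% higher and 8.7% lower of all tested probe sets. At an unadjusted p under 0.05 there were 3 of the 18 host probe sets, against 28.2% of all tested probe sets, so that share is not a result about the hosts. They were SNHG5 (0.33 ± 0.11, adjusted p = 0.0543), SNHG7 at 1552729_at (-0.76 ± 0.25, adjusted p = 0.0571) and SNHG12 at 223773_s_at (0.51 ± 0.17, adjusted p = 0.0634). These passed in 6, 5 and 4 of 21 alternative settings, so the hosts were not shown to be equal before tetracycline. With array weights 12 of 37 members passed in this comparison, 2 of them higher, and the count was 11 without WT untreated replicate 1 and 8 without WT tetracycline replicate 1. Of all tested probe sets 16.5%, 8.88% and 17.9% were called in these fits in either direction, against 12.9% in the main fit. Quantile normalization, which gave a median over all probe sets of 0.01 in place of -0.09, called 1358 probe sets higher and 1774 lower in the WT line untreated, against 1237 and 2570 without it.

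The largest differences between the lines were those of MALAT1. At 223940_x_at the signals were 93, 110 and 100 in the WT line untreated, against 1490, 1217 and 819 in the mutant line untreated. With tetracycline they were 110, 270 and 191 in the WT line, against 1356, 1303 and 737 in the mutant line. The lines were far apart in both conditions, by -3.50 ± 0.32 untreated (11.3-fold lower in the WT line, adjusted p = 7.77e-05) and by -2.61 ± 0.32 with tetracycline (6.12-fold lower, adjusted p = 0.000154). A further probe set, 224568_x_at, followed it with an r of 0.979. It read 51, 148 and 91 in the WT line untreated, against 1044, 868 and 678 in the mutant line untreated, and 77, 153 and 181 in the treated WT line, against 942, 911 and 529 in the treated mutant line. The differences were -3.26 ± 0.39 untreated (adjusted p = 0.000381) and -2.58 ± 0.39 with tetracycline (adjusted p = 0.000448). Both names end in _x_at. These 4 differences passed in 21 of 21 alternative settings each.

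Other MALAT1 probe sets ran differently. At 224567_x_at the WT line untreated read 356, 353 and 123, against 1443, 974 and 681 in the mutant line untreated, a difference of -1.99 ± 0.40 (adjusted p = 0.00642). With tetracycline that probe set read 347, 709 and 487 in the WT line, against 1254, 910 and 636 in the mutant line, and did not pass (-0.87 ± 0.40, adjusted p = 0.124). The opposite sign was seen at 224559_at, with 332, 434 and 213 in the treated WT line, against 52, 102 and 111 in the treated mutant line (1.90 ± 0.56, adjusted p = 0.0219). The dim 228582_x_at read 193, 416 and 285 in the treated WT line, against 26, 79 and 50 in the treated mutant line, a call (2.60 ± 0.75, adjusted p = 0.0188) that supports nothing, since only the treated WT mean was above the filter. The brightest probe set differed by -1.23 ± 0.44 untreated (adjusted p = 0.0792) and by 0.11 ± 0.44 with tetracycline (adjusted p = 0.871). Correlations between MALAT1 probe sets over the 12 arrays ran from -0.501 to 0.979 in 55 pairs, with a median of 0.411, so no single value stands for MALAT1. The lines also differed in the actin 3′ to 5′ ratio given above, and its part in these differences was not tested.

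NEAT1 had 1 probe set past the threshold between the untreated lines. At 238320_at the signals were 495, 268 and 222 in the WT line untreated, against 915, 721 and 958 in the mutant line untreated, which did not overlap. The difference was -1.47 ± 0.33, or 2.78-fold lower in the WT line (adjusted p = 0.00995). All 8 NEAT1 probe sets were below 0 in this comparison, from -0.18 to -1.47, where the median of all tested probe sets was -0.09. They read the same gene on the same arrays. At 214657_s_at only the mutant line means were above the filter, which favours a negative sign. The untreated WT arrays enter both this comparison and the WT induction, so a low untreated array moves both.

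**Figure D4:**
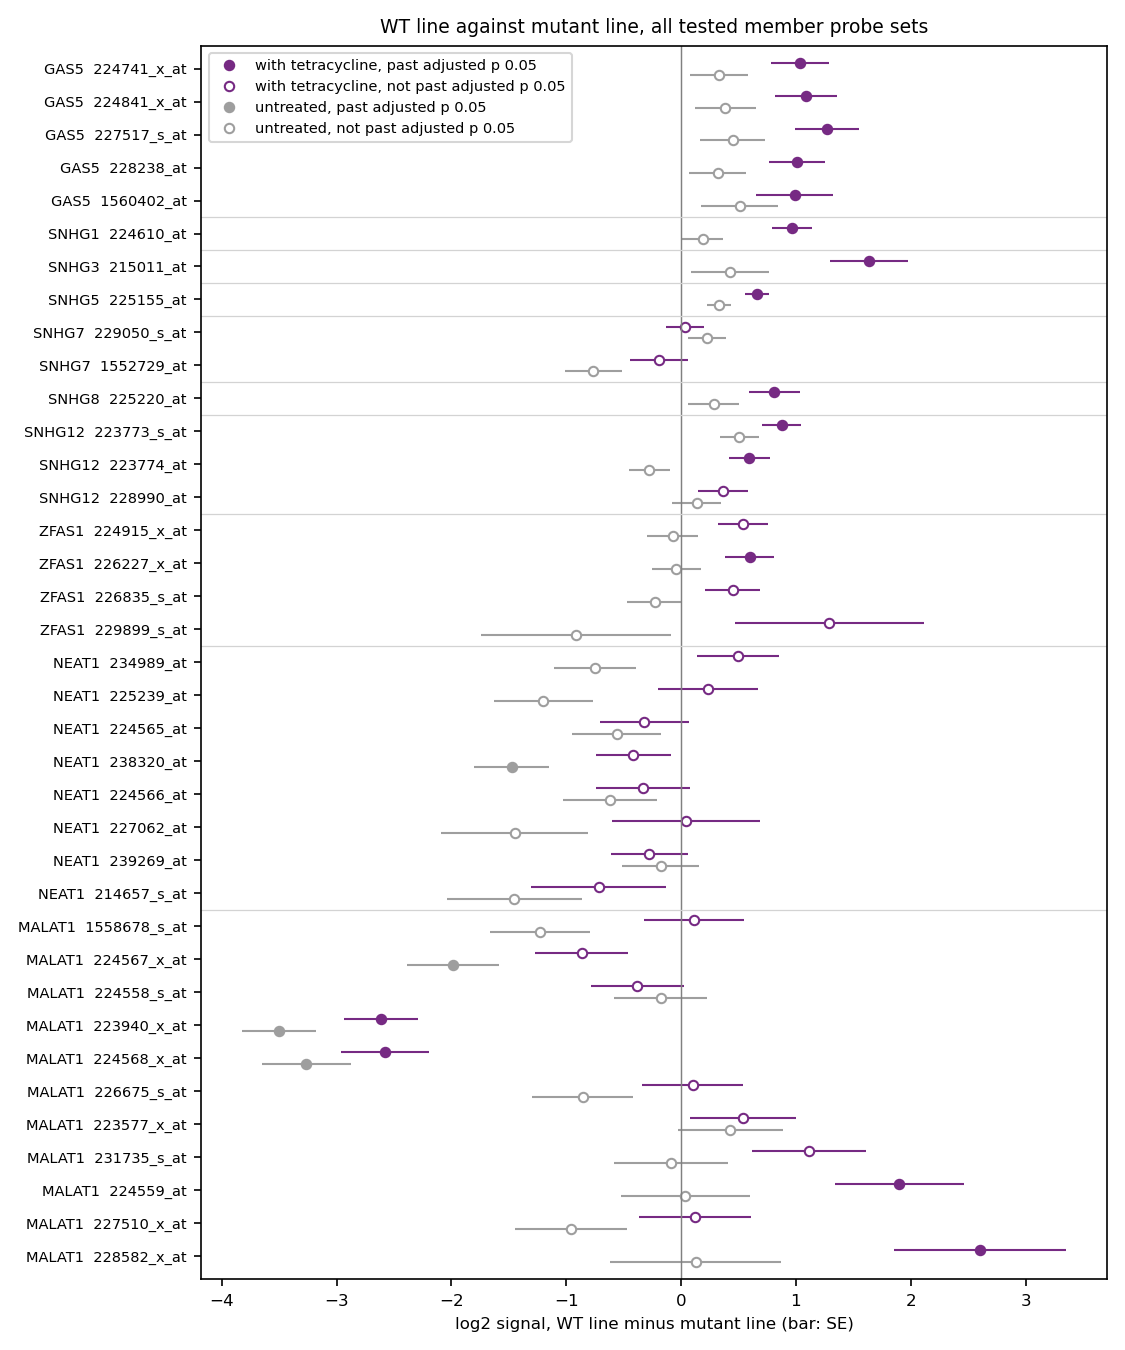
The difference of log2 MAS5 signal between the lines, WT minus mutant, of all 37 tested member probe sets, with tetracycline (purple) and untreated (grey), with bars of 1 SE and filled points for an adjusted p under 0.05. With tetracycline 12 host probe sets lie to the right and are filled, none of the grey host points is filled, and the MALAT1 probe sets lie on both sides, from -3.50 to 2.60.

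Genes that work with these RNAs were read as lists, with 1 probe set per gene, the brightest. In the WT line with tetracycline 1242 of 13176 genes (9.43%) rose and 1134 (8.61%) fell. Of 15 other snoRNA hosts that are mostly non-coding, 3 rose and 3 fell, with a median change of 0.34 against 0.03 over all genes. SNHG15 rose by 0.61 ± 0.15 (adjusted p = 0.0154) and SNHG19 by 0.36 ± 0.10 (adjusted p = 0.0279), while SNHG29 fell by 0.58 (SE 0.14, adjusted p = 0.011) and SNHG16 fell by 0.46 (SE 0.10, adjusted p = 0.00873). SNHG6, which rose by 0.82 ± 0.24 (adjusted p = 0.0302), and DANCR, at -0.76 ± 0.24 (adjusted p = 0.0442), were the remaining calls and are named after their values were seen. Of 21 protein-coding hosts outside the ribosomal proteins 0 rose and 3 fell, with a median of -0.11: HSPA8, a chaperone (-0.52 ± 0.09, adjusted p = 0.00158), WDR43, a factor of ribosome assembly (-0.83 ± 0.23, adjusted p = 0.0251), and TCP1, a chaperonin subunit (-0.45 ± 0.13, adjusted p = 0.0327).

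Of 19 proteins that form or assemble snoRNA particles 0 rose and 6 fell, with a median change of -0.39. SNU13, which binds box C/D snoRNAs, fell by 1.02 (SE 0.16, adjusted p = 0.001), and the assembly ATPases RUVBL2 and RUVBL1 gave -0.89 ± 0.15 (adjusted p = 0.00163) and -0.52 ± 0.12 (adjusted p = 0.00803). NOLC1, a nucleolar chaperone of these particles, gave -0.53 ± 0.13 (adjusted p = 0.0118). Among 13 factors of nonsense-mediated decay, with a median of -0.07, 0 rose and 3 fell: CASC3 (-0.78 ± 0.19, adjusted p = 0.0121), EIF4A3 (-0.41 ± 0.12, adjusted p = 0.0299) and MAGOHB (-0.72 ± 0.23, adjusted p = 0.0413), which all belong to the exon junction complex. Of 15 subunits and adaptors of the nuclear exosome, which degrades RNA in the nucleus, 0 rose and 3 fell, with a median of -0.12: EXOSC5, EXOSC4 and MTREX, with changes of -0.54 to -0.47.

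Of 17 paraspeckle proteins, which bind NEAT1, 0 rose and 5 fell, with a median change of -0.27. NUDT21, a subunit of a 3′ end processing factor, gave -1.15 ± 0.17 (adjusted p = 0.000646), PSPC1 -0.83 ± 0.23 (adjusted p = 0.0241), HNRNPH3 -0.63 ± 0.13 (adjusted p = 0.00611) and EWSR1 -0.49 ± 0.14 (adjusted p = 0.0229). Of 18 proteins of nuclear speckles, where MALAT1 gathers, 3 rose and 4 fell, with a median of -0.13. Among them were SRSF11 (0.61 ± 0.10, adjusted p = 0.00128) and the kinase CLK1 (0.84 ± 0.17, adjusted p = 0.00514) on the rising side and the splicing factors SRSF2 (-0.82 ± 0.20, adjusted p = 0.0122) and U2AF2 (-0.66 ± 0.16, adjusted p = 0.0111) on the falling side. Of 17 other long non-coding RNAs, with a median of 0.07, 3 rose, which were PVT1, TP53TG1 and TUG1 with 0.62 to 0.88, and NORAD fell by 0.78 (SE 0.22, adjusted p = 0.0273). None of these lists had a gene past the threshold in the mutant line, where limma called 0 of 13176 genes. The calls in the WT line rested on its arrays: over the 8 lists together 37 calls were made, against 13 without WT tetracycline replicate 2, 15 without WT tetracycline replicate 3, 18 without WT untreated replicate 3, 24 without WT untreated replicate 1 and 66 without WT tetracycline replicate 1. Only 3 were made without the third-numbered arrays.

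**Figure D5:**
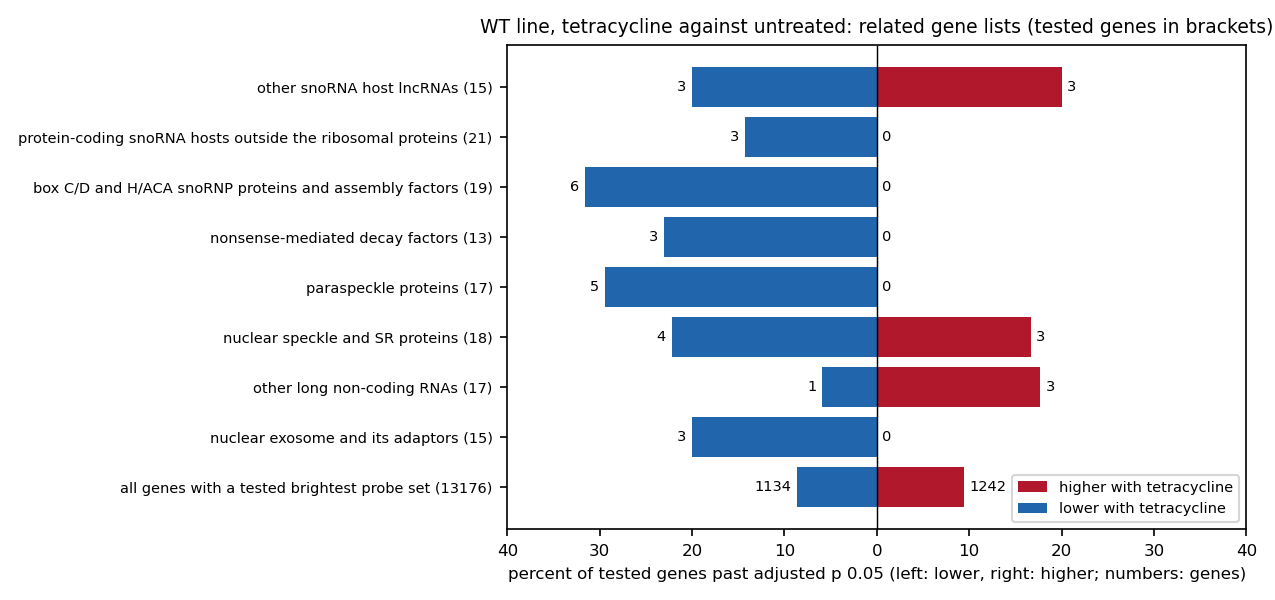
The percent of tested genes in each list past an adjusted p of 0.05 in the WT line, treated against untreated, with genes higher with tetracycline to the right and lower to the left, and the number of genes at each bar. The lists of protein-coding hosts, snoRNA particle proteins, decay factors, paraspeckle proteins and exosome subunits have bars to the left only, and the last row gives all 13176 genes.

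The brightest probe sets of the 8 hosts were averaged on each array to give 1 profile. Its mean log2 signal was 12.58 ± 0.34 in the WT line with tetracycline, 11.91 ± 0.21 in the WT line untreated, 11.76 ± 0.09 in the mutant line with tetracycline and 11.63 ± 0.06 in the mutant line untreated (SD, n = 3 arrays each). The treated WT arrays, at 12.2 to 12.8, did not overlap any other group. The untreated WT arrays, at 11.7 to 12.1, overlapped those of the mutant line with tetracycline, at 11.7 to 11.9. They also overlapped the untreated mutant line arrays, at 11.6 to 11.7. Among 13047 other genes, the profiles most like it over the 12 arrays were those of DUSP1 (Pearson's r = 0.977), MAFF (r = 0.973), GOLGA8N (r = 0.972), VAPA (r = 0.971) and SLC30A4 (r = 0.970). For the brightest NEAT1 probe set they were FRZB (r = 0.926), TUT4 (r = 0.910), H2BC15 (r = 0.902), LOC114224 (r = 0.893) and PCSK5 (r = 0.892). For the brightest MALAT1 probe set they were ZNF83 (r = 0.924), HOXA-AS3 (r = 0.902), TEAD3 (r = 0.899), CCNJL (r = 0.891) and PAX1 (r = 0.888). These values describe 12 arrays that share their groups, and they carry no test.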

How the data were processed

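The deposited table holds 1 intensity per probe set and array on a linear scale, and per the submitters' processing notes the authors made these values with MAS5. Its version, settings and scaling target are not given in the sources used here. All 12 columns of samples were used. Signals were floored at 1 (0.337% of values) and taken to log2, and no further scaling of the deposited log2 values was done. Probe sets were tested where the highest group mean exceeded 6.39, the median of all values, which kept 29553 of 54675 after 62 array controls were left out. A limma fit (version 3.58.1 in R 4.3.3) with a mean per group and a trended prior used all 12 arrays, and p-values were adjusted within each of 5 comparisons by the Benjamini-Hochberg method. Precision is limited by the 3 arrays per group. The code was tested on simulated data with known changes, and RNA quality signs were compared by exact permutation.

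Symbols came from the platform annotation, updated through gene IDs. Of the probe sets without the controls 41097 have 1 symbol, 1801 several and 11715 none. A probe set that lists a host beside its own small RNAs was assigned to the host, and all others with several symbols were left unnamed. The members and gene lists were chosen with earlier results of these data known. All member probe sets were reported, with values on each array for those that were brightest or passed a test. Of each list, at most 4 genes with the smallest p in the WT induction were to be named, and of profiles the 5 most alike. Start windows came from RefSeq on GRCh38.p14. Alternatives were no filter, a filter at the 75th percentile, an offset of 16, quantile normalization, no trended prior, a fit of the compared groups alone, a replicate block, array weights, and leaving out each array or all third-numbered arrays. For the gene lists they were added after the data were seen.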

Additional observations from a re-analysis of the deposited data

How the results depend on the processing

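The count of members called in the WT induction was 11. It was 4 without the trended prior, 2 with only the arrays of the groups compared, 1 without the third-numbered arrays, 20 with array weights and 3 to 18 when single arrays were left out. Of all tested probe sets 16.9% were called, and 13.4%, 4.14%, 1.74%, 21.4% and 9.28% to 27.1% in these fits. The count for the difference between the inductions was 0, and it was 15 with array weights and 0 to 6 when single arrays were left out. Between the untreated lines it was 4, and it was 12 with array weights and 4 to 11 when single arrays were left out. Of all tested probe sets 12.9% were called there, and 16.5% and 5.4% to 17.9% in those fits. Between the treated lines the count of members was 16, and it was 6 without the third-numbered arrays and 10 to 18 when single arrays were left out. Of all tested probe sets 27.6% were called there, and 8.68% and 17.6% to 34.3% in those fits. In the mutant line 0 members were called in all 21 alternatives. No filter, the 75th percentile filter, the offset and quantile normalization kept each of these counts within 1.5 times. With the replicate block the count was 17 in the WT induction, 7 between the untreated lines and 18 between the treated lines. Of all tested probe sets 19.4%, 15.3% and 30.4% were called with the block. The calls gained by the block in the WT induction were 3 probe sets of GAS5 (adjusted p of 0.00922 to 0.035), 1 of SNHG8 (0.042) and 2 of MALAT1 (0.0303 and 0.0448), and 0 calls were lost. Whether the replicate numbers pair the arrays is not in the labels and was not tested. Deviations of arrays with the same number correlated at -0.00534 to 0.253, and 8 of 12 arrays correlated best with their own number. Between treated and untreated WT line arrays the correlation was 0.253, 0.24 and 0.0418 for replicates 1, 2 and 3. No value of a member probe set that passed a test changed sign. Of all probe sets tested, array weights called 6312 in the WT induction against 5005 without them, and 2493 against 41 for the difference between the inductions, while 534 and 0 were called without the third-numbered arrays. The lowest weight was that of WT tetracycline replicate 1, at 0.267.

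The list counts in the WT induction, an analysis added after the data were seen, moved as follows. Other snoRNA host RNAs had 6 calls, with 3 without the trended prior, 0 with only the compared arrays, 1 without the third-numbered arrays and 2 to 9 when single arrays were left out. Protein-coding hosts had 3, with 1 in each of these 3 fits, 5 with array weights, 6 with the replicate block and 1 to 9 without single arrays. The snoRNA particle proteins had 6, with 2 for the compared arrays, 1 without the third-numbered arrays, 10 with array weights and 3 to 10 without single arrays. Decay factors had 3, with 1 without a filter, 1 without the trended prior, 0 with only the compared arrays, 0 without the third-numbered arrays and 0 to 6 without single arrays. Paraspeckle proteins had 5, with 2 without the trended prior, 2 with only the compared arrays, 0 without the third-numbered arrays, 8 with array weights and 2 to 10 without single arrays. Speckle proteins had 7, with 1 for the compared arrays, 0 without the third-numbered arrays and 3 to 10 without single arrays. Other long RNAs had 4, with 1 without the trended prior, 0 with only the compared arrays, 0 without the third-numbered arrays and 0 to 7 without single arrays. Exosome genes had 3, with 1 without a filter, 0 without the trended prior, 0 with only the compared arrays, 0 without the third-numbered arrays and 0 to 5 without single arrays. Of all tested probe sets 16.9% were called in the main fit. The share was 7.27% without a filter, 13.4% without the trended prior, 4.14% with only the compared arrays and 1.74% without the third-numbered arrays. With array weights it was 21.4%, with the replicate block 19.4%, and without single arrays 9.28% to 27.1%. The call rate over the whole table thus moved too, and the cause of these shifts was not tested.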
